A study of Mus musculus with 16 samples.

Results

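Metabotropic glutamate receptors are the glutamate receptors that act through G proteins rather than as ion channels, and 6 of their genes are described here in the hippocampus and striatum of adult mice: Grm5, Grm2, Grm3, Grm4, Grm7 and Grm8. They were found by symbol, 6 of the 24060 gene labels in each table, and all 6 passed the filter on low values that left 13470 genes for testing. The RNA came from 4 mice, male and female, at postnatal day 63. Every mouse was hemizygous for Aldh1l1-creERT2 and heterozygous for Ribotag, on an FVB background crossed for 3 generations to C57/Bl6N (about 88%). Cre expressed from the Aldh1l1 driver, which is active in astrocytes, puts a hemagglutinin (HA) tag on a ribosomal protein. The sex of each animal and the agent used to activate Cre are not given in the sources used here. RNA bound to tagged ribosomes was then precipitated (IP) and set against RNA of the cleared lysate of the whole region (input). The 4 groups, each of 4 libraries and 1 library per animal, were striatal IP, striatal input, hippocampal IP and hippocampal input. All 16 libraries carried the same alleles, and no mouse without Cre was analysed here.

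The family falls into 3 groups. Group I, to which Grm5 belongs, couples to Gq, phospholipase C and calcium release from stores. Group II (Grm2 and Grm3) and group III (Grm4, Grm7 and Grm8) couple to Gi/o and lower cyclic AMP. Most of these receptors sit at synapses. Grm2, Grm4, Grm7 and Grm8 act largely on axon terminals, where they limit transmitter release, and Grm5 acts mainly on postsynaptic dendrites and spines. Grm3 is also known as a receptor of astrocytes. Grm5 has been reported to be high in the astrocytes of young mice and low in those of adult mice.

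Levels are given as scaled FPKM, the deposited FPKM (fragments counted per kilobase of gene, relative to library depth) divided by a scaling factor per library, so they can be compared between genes as well as between libraries. Fold changes are on the log2(scaled FPKM + 1) scale ± SE, which understates the change of low genes. A gene was called at a Benjamini-Hochberg adjusted p under 0.05 (limma, over all 13470 genes). Estimated depth was 13900000 to 21680000 counted fragments in striatal IP, 4140000 to 8920000 in striatal input, 18840000 to 22510000 in hippocampal IP and 8990000 to 12180000 in hippocampal input. The tagged protein's gene, Rpl22, stood at 2.85 to 3.35 scaled FPKM in striatal IP against 2.36 to 3.47 in striatal input, and at 3.18 to 3.74 in hippocampal IP against 3.89 to 3.99 in hippocampal input. The driver gene Aldh1l1 stood at 74.6 to 130 scaled FPKM in striatal IP against 3.28 to 5.49 in striatal input, and at 97.4 to 124 in hippocampal IP against 3.38 to 6.48 in hippocampal input. All 15 astrocyte markers were higher in IP in both regions, and of 15 pan-neuronal markers 13 were lower in striatal IP and 15 in hippocampal IP, with 0 higher. The neuronal markers were not absent from the IPs. Their median IP level, as a percent of the same animal's input, was 9.75, 13.04, 31.3 and 15.8 in striatum and 6.12, 5.68, 12.1 and 7.77 in hippocampus (animals 970, 971, 974 and 977, in which order all values per animal are given). Summed over the 15 markers, the neuronal level was 232 to 461 in striatal IP against 2334 to 3275 in striatal input, and 264 to 406 in hippocampal IP against 4415 to 4534 in hippocampal input. In such bulk libraries, fewer cells of a type and less RNA per cell cannot be told apart.

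**Figure D1:**
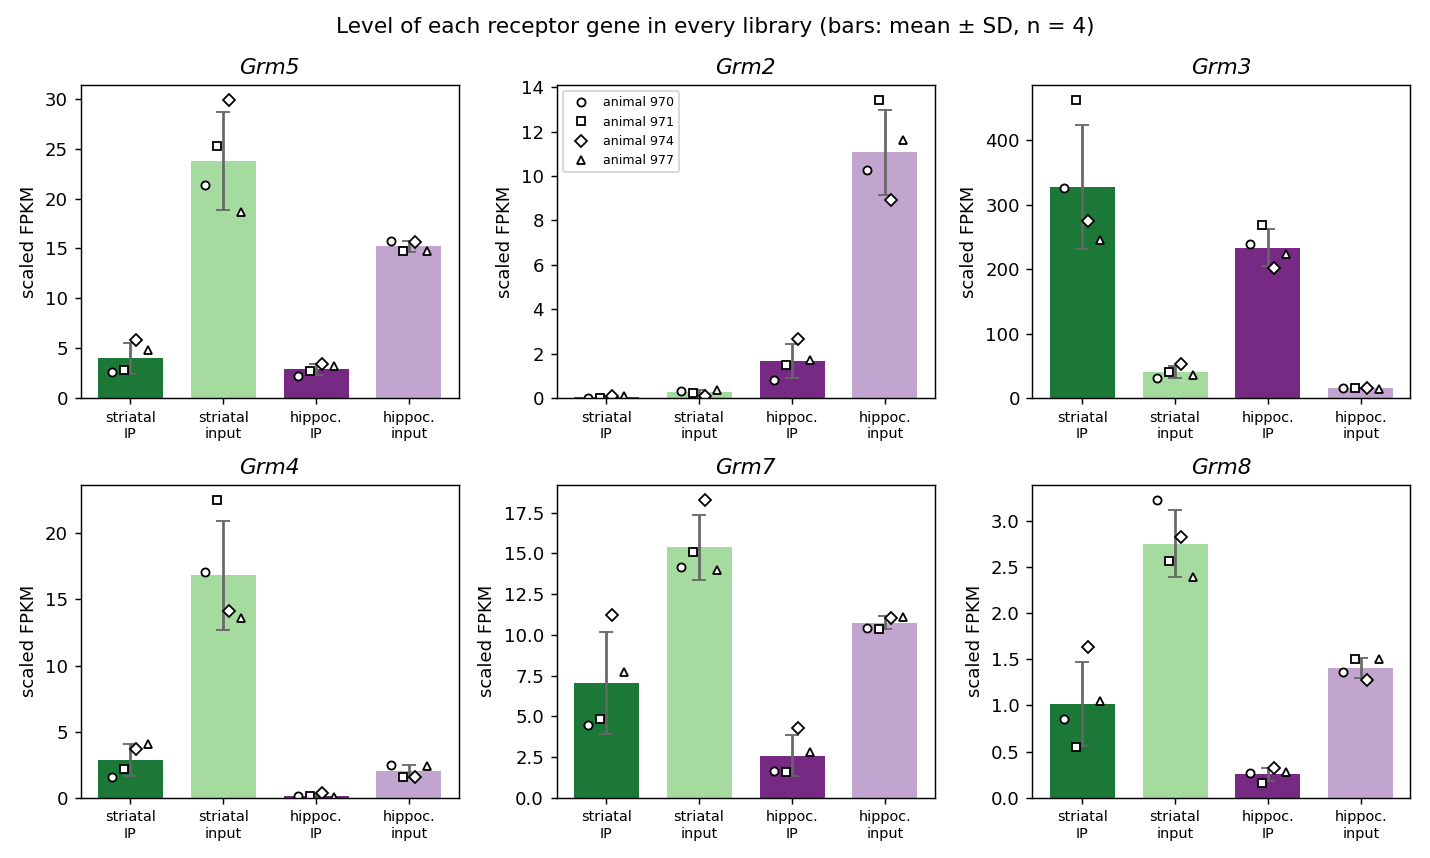
Scaled FPKM of the 6 receptor genes in striatal IP, striatal input, hippocampal IP and hippocampal input. Bars are means with SD over 4 animals, symbols are single animals, and each panel has its own linear axis. Grm3 is the gene whose IP libraries all lie above its input libraries in both regions.

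Grm3 rose in astrocyte IP over input in both regions, and the other receptors fell or did not pass. In striatum 1 of the 6 genes was higher in IP and 4 were lower, while 33.5% of all tested genes were called higher and 31.4% lower. In hippocampus 1 was higher and 5 were lower, against 30.1% and 35.5% of all genes. With most genes called in each region, passing the test sets no gene apart, and the size of the change is the more informative value. The median log2 fold change of the 6 was -1.01 in striatum and -1.57 in hippocampus, and that of all tested genes was 0.0099 and -0.10.

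Grm3, the group II receptor shared by astrocytes and neurons, was by far the most abundant of the 6 in the IPs. In striatal IP it reached 326, 462, 275 and 245 scaled FPKM, against 31.6, 40.1, 52.5 and 35.3 in striatal input. In hippocampal IP it reached 239, 269, 202 and 224, against 14.9, 16.1, 14.8 and 14.4 in hippocampal input. The lowest IP library exceeded the highest input library in each region, and in every animal. The ratio of IP to input was 10.3, 11.5, 5.24 and 6.95 in striatum and 16, 16.7, 13.6 and 15.5 in hippocampus. The log2 fold change was 2.99 ± 0.18 in striatum (adjusted p = 7.36e-10) and 3.86 ± 0.18 in hippocampus (adjusted p = 3.84e-11). Ordered by fold change from the highest, Grm3 was gene 204 of 13470 in striatum and gene 55 in hippocampus. Grm3 lies on chromosome 5 of GRCm38/mm10, minus strand, from base 9485541 to 9725170, a protein-coding gene of 239.6 kb with no other gene's exon over its own.

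Grm2, the other group II receptor, is a presynaptic autoreceptor known from dentate granule cells and their mossy fibres, and it was lower in hippocampal IP. In hippocampal IP it stood at 0.825, 1.48, 2.67 and 1.70 scaled FPKM, against 10.3, 13.4, 8.94 and 11.6 in hippocampal input. The groups did not overlap, and the log2 fold change was -2.21 ± 0.18 (adjusted p = 1.15e-08). In striatum it was close to the limit of detection in both kinds of library, listed at 0, 0, 0.102 and 0.103 in striatal IP against 0.325, 0.240, 0.0726 and 0.360 in striatal input. By the step between its lowest values, these correspond to about 0, 0, 5 and 5 fragments in striatal IP and 9, 5, 1 and 14 in striatal input, so the highest IP exceeded the lowest input. The striatal difference did not pass (-0.24 ± 0.18, adjusted p = 0.234). It passed with a pseudocount of 0.1 in place of 1 (-1.20, adjusted p = 0.0126). Grm2 lies on chromosome 9, minus strand, from base 106643095 to 106656082. Its exons overlap those of another gene, and the library kit is not stated to keep strand, so reads there cannot be assigned to either.

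The promoters of both group II genes are shown because the pair shares its signalling while Grm3 was higher and Grm2 lower in hippocampal IP. Both are RefSeq sequences of GRCm38.p6, from 250 bases before to 50 after the annotated start, written 5′ to 3′ on the minus strand, chr5:9725303-9725602 for Grm3 and chr9:106656060-106656359 for Grm2. The RefSeq start of Grm3 differs from the GENCODE one given above, so its window lies wholly upstream of the GENCODE gene. Capitals mark GGGCGG, the GC box, and TTGGC, the half-site of the NFI factors, on either strand (GCCAA is TTGGC on the other strand).
Grm3: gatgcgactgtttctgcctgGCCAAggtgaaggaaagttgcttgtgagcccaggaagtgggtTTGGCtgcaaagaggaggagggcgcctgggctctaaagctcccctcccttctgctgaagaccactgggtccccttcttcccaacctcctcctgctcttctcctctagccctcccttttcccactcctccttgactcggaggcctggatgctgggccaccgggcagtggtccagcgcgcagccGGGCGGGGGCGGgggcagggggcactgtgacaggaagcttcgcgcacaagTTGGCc
Grm2: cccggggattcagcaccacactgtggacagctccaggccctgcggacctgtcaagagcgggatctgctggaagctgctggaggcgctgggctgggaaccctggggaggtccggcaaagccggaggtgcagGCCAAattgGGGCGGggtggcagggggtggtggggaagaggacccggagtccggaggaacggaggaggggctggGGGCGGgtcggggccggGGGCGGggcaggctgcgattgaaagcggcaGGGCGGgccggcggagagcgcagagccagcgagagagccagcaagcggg
Grm3 held 2 matches to GGGCGG and 3 to TTGGC, and Grm2 held 4 and 1. Of the 32851 promoter windows in the table, 35.7% held GGGCGG and 46.7% held TTGGC at least once. Both windows were richer in G and C (63.7% in Grm3, 72.0% in Grm2) than the median window (52.7%). Of the 6 genes 4 had a window in the table, the others being Grm7 and Grm8.

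Grm5, the group I receptor, was depleted in the IPs of both regions. It stood at 2.57, 2.82, 5.78 and 4.85 scaled FPKM in striatal IP, against 21.3, 25.2, 29.9 and 18.7 in striatal input. In hippocampal IP it stood at 2.23, 2.70, 3.39 and 3.19, against 15.7, 14.8, 15.6 and 14.8 in hippocampal input. No IP library came near an input library of its region. The log2 fold change was -2.34 ± 0.19 in striatum (adjusted p = 2.00e-08) and -2.08 ± 0.19 in hippocampus (adjusted p = 6.90e-08). Grm5 lies on chromosome 7, plus strand, from base 87584168 to 88134907.

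Among the group III receptors, which are presynaptic, Grm4 had the deepest fall in striatum. It stood at 1.55, 2.16, 3.70 and 4.07 scaled FPKM in striatal IP, against 17.1, 22.6, 14.1 and 13.6 in striatal input (-2.23 ± 0.21, adjusted p = 1.03e-07). In hippocampus, where Grm4 was low altogether, it stood at 0.110, 0.161, 0.333 and 0.0745 in IP, against 2.46, 1.58, 1.60 and 2.42 in input (-1.36 ± 0.21, adjusted p = 2.64e-05). The groups did not overlap in either region. Grm4 lies on chromosome 17, minus strand, from base 27422387 to 27521403.

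Grm7, a receptor of low glutamate affinity placed at the active zone of terminals, was also lower in IP in both regions. It stood at 4.44, 4.81, 11.2 and 7.71 scaled FPKM in striatal IP, against 14.1, 15.1, 18.3 and 13.97 in striatal input (-1.10 ± 0.24, adjusted p = 0.000898). In hippocampal IP it stood at 1.65, 1.57, 4.25 and 2.83, against 10.4, 10.3, 11.1 and 11.1 in hippocampal input (-1.78 ± 0.24, adjusted p = 6.999e-06). The groups did not overlap in either region, and the striatal IP of animal 974 came closest to the inputs. Grm7 covers 921.6 kb of chromosome 6, plus strand, from base 110645581 to 111567230, and its exons overlap those of another gene.

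Grm8, also presynaptic, was the lowest of the 6 in hippocampal input. It stood at 0.849, 0.553, 1.63 and 1.05 scaled FPKM in striatal IP, against 3.23, 2.56, 2.82 and 2.40 in striatal input (-0.92 ± 0.14, adjusted p = 2.50e-05). In hippocampal IP it stood at 0.265, 0.158, 0.326 and 0.275, against 1.36, 1.499, 1.27 and 1.499 in hippocampal input (-0.94 ± 0.14, adjusted p = 1.70e-05). Again no IP library reached the lowest input. Grm8 lies on chromosome 6, minus strand, from base 27275119 to 28135178, and its exons overlap those of a microRNA gene.

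**Figure D2:**
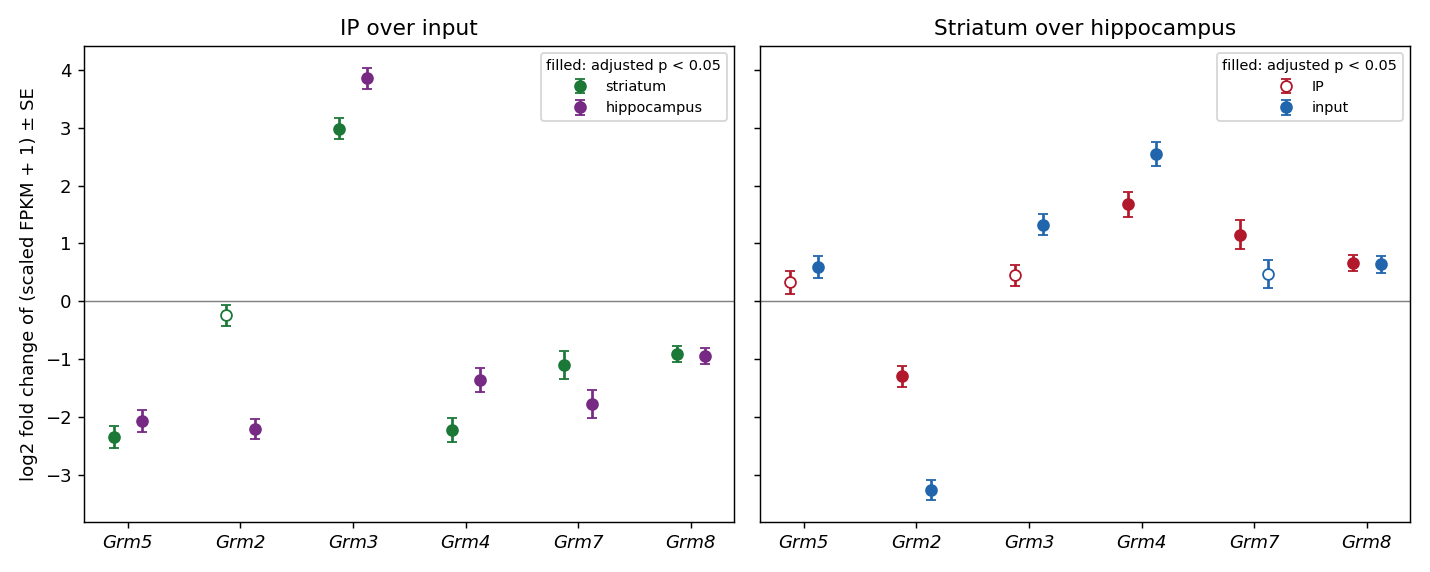
Log2 fold change of (scaled FPKM + 1) with SE for each gene, IP over input on the left (striatum green, hippocampus purple) and striatum over hippocampus on the right (IP red, input blue). Filled symbols passed at adjusted p under 0.05, and Grm3 alone lies above 0 on the left.

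The receptors lower in IP did not all fall to the same fraction of their input. Grm5 retained 12.04, 11.2, 19.3 and 25.97% of input in striatal IP and 14.2, 18.3, 21.7 and 21.6% in hippocampal IP. Per striatal library, 4 to 9 of the 15 pan-neuronal markers retained more than Grm5, and in hippocampus 0 to 2 did. Grm4 retained 9.10, 9.57, 26.2 and 30.02% in striatum, where 3 to 10 of the 15 markers retained more. Grm7 retained 31.4, 31.9, 61.4 and 55.2% in striatum, where 0 to 4 markers retained more, and 15.8, 15.1, 38.5 and 25.5% in hippocampus, where 0 to 2 did. Grm8 retained 26.3, 21.6, 57.8 and 43.7% in striatum, where 2 to 5 markers retained more, and 19.5, 10.5, 25.6 and 18.4% in hippocampus. Grm7 and Grm8 lay above the neuronal median in all 4 striatal and all 4 hippocampal IPs, and Grm2 and Grm5 did so in all 4 hippocampal IPs. Against markers of the region's own projection neurons, 0 to 2 of 13 retained more than Grm7 in striatum, and 3 to 4 of 12 did in hippocampus. The hippocampal list holds Zbtb20, which was higher in IP than in input in hippocampus (1.32) and striatum (2.01). It also holds Wfs1, which averaged 29.0 scaled FPKM in hippocampal IP against 39.1 in hippocampal input. Both are poor gauges of neuronal RNA here. Grm4 retained 4.48, 10.2, 20.9 and 3.08% in hippocampus, where 2 to 15 of the 15 pan-neuronal markers retained more. Grm2 retained 8.04, 11.03, 29.8 and 14.7% in hippocampus, where 0 to 4 did. In striatal IP, Grm4, Grm5, Grm7 and Grm8 were each higher in animals 974 and 977 than in 970 and 971, as was the percent of neuronal markers retained. The part of neuronal RNA in these IP levels was not tested apart from the subtraction given with the regional comparison.

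**Figure D3:**
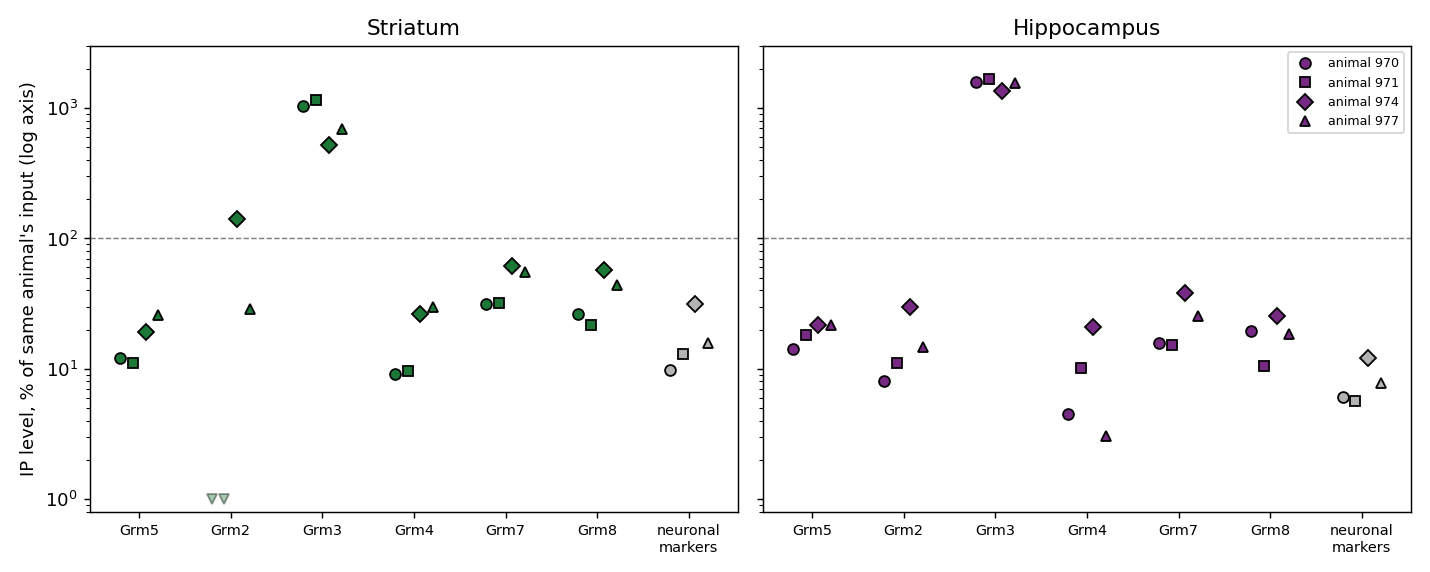
IP level as a percent of the same animal's input, on a log axis, for each receptor gene and for the median of 15 pan-neuronal markers (grey). Symbols are animals, the dashed line marks equal levels, and pale triangles at the bottom stand for Grm2 at 0 in 2 striatal IPs. Grm3 lies at 524 to 1152% in striatum and 1365 to 1669% in hippocampus, and Grm7 and Grm8 also lie above the neuronal median in every library.

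The order of the 6 genes changed between astrocyte IP and whole tissue. In striatal IP the means ran from Grm3 (327 ± 96.2 scaled FPKM, SD, n = 4) over Grm7 (7.05 ± 3.15), Grm5 (4.00 ± 1.57), Grm4 (2.87 ± 1.21) and Grm8 (1.02 ± 0.45) to Grm2 (0.051 ± 0.059). The ranges of Grm7, Grm5, Grm4 and Grm8 each overlapped that of the next. In striatal input the order was Grm3 (39.9 ± 9.14), Grm5 (23.8 ± 4.88), Grm4 (16.8 ± 4.12), Grm7 (15.4 ± 2.01), Grm8 (2.75 ± 0.36) and Grm2 (0.249 ± 0.128), with overlap from Grm5 to Grm7. In hippocampal IP it was Grm3 (233 ± 28.0), Grm5 (2.88 ± 0.52), Grm7 (2.57 ± 1.26), Grm2 (1.67 ± 0.76), Grm8 (0.256 ± 0.0708) and Grm4 (0.170 ± 0.115). Grm5, Grm7 and Grm2 overlapped there, as did Grm8 and Grm4. In hippocampal input Grm5 (15.2 ± 0.53) and Grm3 (15.1 ± 0.72) could not be ordered, nor could Grm2 (11.1 ± 1.92) and Grm7 (10.7 ± 0.40), and Grm4 (2.01 ± 0.49) and Grm8 (1.41 ± 0.11) followed.

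Of the summed level of the 6 genes, Grm3 made up 92.5 to 97.8% in striatal IP against 36.0 to 44.6% in striatal input. In hippocampus it made up 94.8 to 97.9% in IP against 25.8 to 27.9% in input. The sum itself was 263 to 473 scaled FPKM in striatal IP against 84.2 to 118 in striatal input, and 213 to 275 in hippocampal IP against 53.3 to 57.7 in hippocampal input. Whole-tissue libraries held a mixture of receptors, in which Grm5 made up 22.2 to 25.4% in striatum and 25.6 to 29.4% in hippocampus. Grm5 made up 0.60 to 1.94% of the sum in striatal IP and 0.91 to 1.59% in hippocampal IP.

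**Figure D4:**
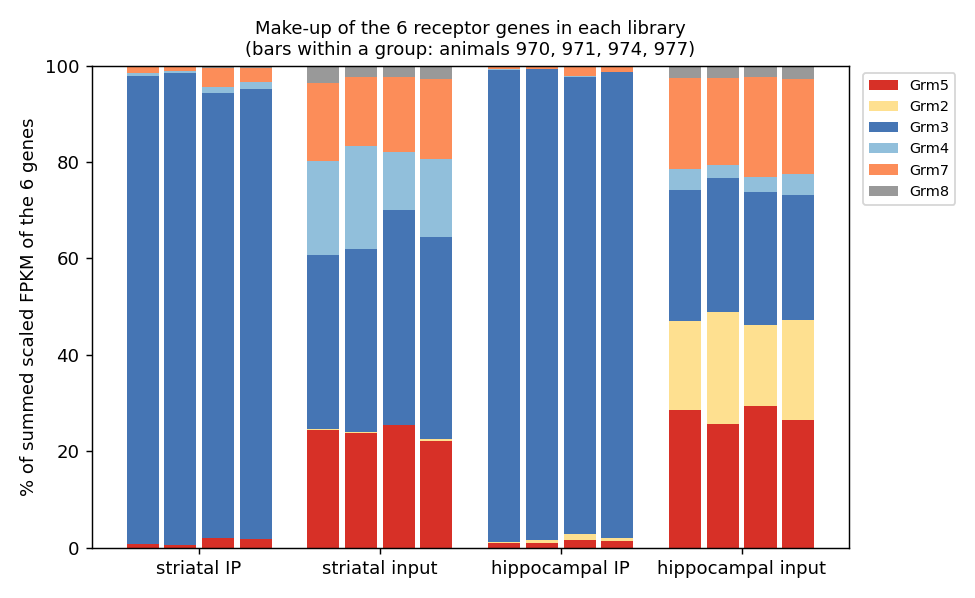
Share of each receptor gene in the summed scaled FPKM of the 6, 1 bar per library, for striatal IP, striatal input, hippocampal IP and hippocampal input. Grm3 fills over 92% of every IP bar, while the input bars hold several receptors and differ by region in Grm4 and Grm2.

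The next comparison set the IPs of the regions against each other. Between striatal and hippocampal IP, 3 of the 6 genes were higher in striatum and 1 was lower, while 7.18% of all tested genes were called higher and 5.38% lower. The rises were the group III genes Grm4 (1.67 ± 0.21, adjusted p = 4.04e-05), Grm7 (1.15 ± 0.24, adjusted p = 0.00413) and Grm8 (0.66 ± 0.14, adjusted p = 0.00417). Grm2 was lower in striatal IP (-1.30 ± 0.18, adjusted p = 8.53e-05). Grm3 was higher in striatal than in hippocampal IP in 4 of 4 animals, by ratios of 1.36, 1.72, 1.36 and 1.09, yet its ranges overlapped and the difference did not pass (0.45 ± 0.18, adjusted p = 0.134). It passed when the libraries were left unscaled (0.61, adjusted p = 0.00339), and it was smaller without striatal IP 971 (0.27, adjusted p = 0.308). Grm5 did not pass either (0.33 ± 0.19, adjusted p = 0.325), and was 0.16 without striatal IP 974 (adjusted p = 0.769).

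Markers of other cell types also differed between these IPs. Of 13 striatal projection neuron markers 12 were higher in striatal IP and 0 lower (median 3.03). Their summed level was 245 to 443 scaled FPKM in striatal IP against 78.1 to 94.4 in hippocampal IP. Ppp1r1b made up most of the hippocampal IP sum, with a mean of 75.0 there and 106 in striatal IP. It was higher in hippocampal IP than in hippocampal input (2.64, adjusted p = 2.12e-06) and not called between IPs (0.50, adjusted p = 0.382). Of 12 oligodendrocyte markers 7 were higher and 0 lower (median 0.85), with sums of 103 to 159 in striatal IP against 94.97 to 102 in hippocampal IP. Cnp made up most of the hippocampal IP sum, with a mean of 69.0 there and 51.7 in striatal IP. It was higher in hippocampal IP than in hippocampal input (1.42, adjusted p = 5.80e-06) and not called between IPs (-0.43, adjusted p = 0.176). None of these markers was at 0 in all libraries of an IP group. Of 12 hippocampal principal neuron markers 0 were higher and 8 lower. Of 15 astrocyte markers 0 were higher and 5 lower in striatal IP (median -0.38). Of 15 pan-neuronal markers 1 was higher, 1 lower and 13 not called between the IPs (median 0.13). Their summed level in input was lower in striatum, at 2334 to 3275 scaled FPKM against 4415 to 4534 in hippocampus. Set against that input, the median pan-neuronal marker stood at 9.75 to 31.3% in striatal IP and 5.68 to 12.1% in hippocampal IP. The part of these cell types in the regional differences was not tested beyond the subtraction of the neuronal share. When each animal's input times that percent was subtracted from its IP, the Grm4 difference no longer passed (0.34, adjusted p = 0.502) and that of Grm5 turned negative (-0.92, adjusted p = 0.0532). Levels that would fall below 0 were set to 0. This befell Grm4 in striatal IPs 970, 971 and 974 and hippocampal IPs 970 and 977, and Grm5 in striatal IPs 971 and 974. The Grm4 and Grm5 values rest partly on these zeros, so they do not size the neuronal part of either difference. After subtraction Grm7 (0.97, adjusted p = 0.0175), Grm8 (0.44, adjusted p = 0.0425) and Grm2 (-0.82, adjusted p = 0.0156) still passed. Without animal 977 neither Grm7 (1.15, adjusted p = 0.0512) nor Grm8 (0.65, adjusted p = 0.0566) passed.

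Whole tissue was compared in the same way. Between striatal and hippocampal input, 4 of the 6 genes were higher in striatum and 1 was lower, while 14.5% of all tested genes were called higher and 21.8% lower. Grm4 had the largest rise (2.55 ± 0.21, adjusted p = 8.29e-08), and its ratio was 6.93, 14.3, 8.84 and 5.60 in the 4 animals. Grm3 rose by 1.32 ± 0.18 (adjusted p = 3.02e-05), with ratios of 2.11, 2.49, 3.55 and 2.45. Grm8 rose by 0.64 ± 0.14 (adjusted p = 0.00211). Grm5 rose by 0.59 ± 0.19 (adjusted p = 0.0245). The call did not hold without animal 971 (adjusted p = 0.134) or animal 974 (adjusted p = 0.0610). Nor did it hold without both striatal inputs 971 and 974 (0.37, adjusted p = 0.249), or without striatal input 971 (adjusted p = 0.0617) or 974 (adjusted p = 0.0738). It was also lost without hippocampal input 971 (adjusted p = 0.0556) or 977 (adjusted p = 0.0561), and without scaling (adjusted p = 0.0609). Subtracting the neuronal share changes the IP libraries only, so it cannot test a difference between inputs. The Grm5 value under it (0.65, adjusted p = 0.0948) moved through the recomputed scaling factors and the spread shared by all groups. Grm7 was higher in 4 of 4 animals but did not pass (0.47 ± 0.24, adjusted p = 0.138), except with the animal as a block (adjusted p = 0.0451) or with the inputs fitted alone (adjusted p = 0.0141). Grm2 was far lower in striatum, with a log2 fold change of -3.26 ± 0.18 (adjusted p = 7.40e-10), at 0.0726 to 0.360 scaled FPKM against 8.94 to 13.4 in hippocampus. Counted from the lowest fold change, Grm2 was gene 23 of 13470 in this comparison.

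Whether the enrichment itself differed by region was tested as striatal minus hippocampal log2 IP over input. Of the 6 genes 1 was higher and 1 was lower, while 8.47% of all tested genes were called higher and 5.33% lower. Grm2 had the positive difference (1.96 ± 0.25, adjusted p = 5.87e-05), but its striatal levels, at most 0.103 scaled FPKM in IP and 0.360 in input, lay far below the pseudocount of 1, which holds the striatal term near 0. The value therefore restates the hippocampal fall and does not show that the enrichment differed. With a pseudocount of 0.1 it did not pass (1.55, adjusted p = 0.0875), and the ratios of IP to input, 0, 0, 1.41 and 0.287 in striatum, lay on both sides of those in hippocampus, 0.0804, 0.110, 0.298 and 0.147. Grm3 had the negative one (-0.87 ± 0.26, adjusted p = 0.0337), its IP being 5.24 to 11.5 times input in striatum and 13.6 to 16.7 times in hippocampus. The Grm3 call was lost in 11 of 16 fits that left out a single library (adjusted p up to 0.0761). These were the fits without striatal IP 974 or 977, striatal input 971 or 974, hippocampal IP 970, 971 or 977, or any hippocampal input. It was also lost without animal 970, 974 or 977 (adjusted p up to 0.125) and without both striatal inputs 971 and 974, the shallowest libraries (-0.65, adjusted p = 0.117). Grm4 (-0.88, adjusted p = 0.0605), Grm7 (0.68, adjusted p = 0.205), Grm5 (-0.27, adjusted p = 0.543) and Grm8 (0.024, adjusted p = 0.953) did not pass. Grm8 in hippocampal IP, at most 0.326 scaled FPKM, lay below the pseudocount of 1. Its ratio of IP to input was 0.263, 0.216, 0.578 and 0.437 in striatum and 0.195, 0.105, 0.256 and 0.184 in hippocampus. The Grm8 value near 0 therefore does not show an equal fall in both regions. Grm4 passed with median-of-ratios scaling (-0.95, adjusted p = 0.0393), with the neuronal share subtracted (-2.24, adjusted p = 0.00164), and without animal 977 (-1.22, adjusted p = 0.0390), striatal IP 974 (-0.99, adjusted p = 0.0437), striatal IP 977 (-1.02, adjusted p = 0.0314) or striatal input 977 (-0.96, adjusted p = 0.0355). With a pseudocount of 0.1 the Grm4 value turned positive and did not pass (0.45, adjusted p = 0.553). Grm4 in hippocampal IP, at most 0.333 scaled FPKM, lay below the pseudocount of 1. As a percent of input, Grm4 IP was 9.10 to 30.02 in striatum and 3.08 to 20.9 in hippocampus. The negative Grm4 values therefore do not show a deeper fall in striatum. Grm5 passed with the neuronal share subtracted (-1.57, adjusted p = 0.0121). That subtraction set Grm5 to 0 in striatal IPs 971 and 974, where it retained 11.2 and 19.3% of input against neuronal medians of 13.04 and 31.3%. In no hippocampal IP did Grm5 fall below the neuronal median. The value therefore does not show a deeper fall of Grm5 in striatum.

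Genes of the receptors' pathways were counted against the shares of all tested genes, 33.5% higher and 31.4% lower in striatal IP and 30.1% higher and 35.5% lower in hippocampal IP, with all-gene medians of 0.0099 and -0.10. Of 15 tested genes of Gq, phospholipase C, calcium release and protein kinase C, 5 were higher and 8 lower in striatum, and 5 were higher and 8 lower in hippocampus (medians -1.24 and -0.52). The counts of higher genes were near the share of all genes. Plcb3, a phospholipase C, averaged 13.6 ± 2.44 scaled FPKM in striatal IP against 0.885 ± 0.195 in striatal input, and 15.7 ± 1.94 in hippocampal IP against 1.05 ± 0.31 in hippocampal input (SD, n = 4 each). Its log2 fold change was 2.94 in striatum (adjusted p = 1.05e-10) and 3.03 in hippocampus (adjusted p = 4.77e-11). Itpr2, an inositol trisphosphate receptor that releases stored calcium, averaged 11.4 ± 2.95 in striatal IP against 1.20 ± 0.25 in striatal input. It rose by 2.47 in striatum (adjusted p = 5.19e-10) and 2.78 in hippocampus (adjusted p = 1.01e-10). Its relative Itpr1 went the other way, with -2.34 in striatum (adjusted p = 2.55e-08) and -2.50 in hippocampus (adjusted p = 9.35e-09). Itpr1 averaged 29.0 ± 8.57 in striatal IP. Prkcb, a protein kinase C gene, had a log2 fold change of -3.50 in striatum (adjusted p = 1.90e-08) and -3.66 in hippocampus (adjusted p = 9.08e-09).

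Most genes of the postsynaptic scaffold that holds group I receptors were lower in IP. Of 12 Homer, Shank, Dlgap and related genes, 2 were higher and 9 lower in striatal IP, and 0 were higher and 12 lower in hippocampal IP (medians -1.09 and -1.71). Homer1, which links group I receptors to calcium stores, had a log2 fold change of -2.33 in striatum (adjusted p = 8.12e-08) and -1.53 in hippocampus (adjusted p = 9.09e-06). For Homer2 the values were -0.46 (adjusted p = 0.0121) and -1.83 (adjusted p = 1.31e-08). For Ncdn, which encodes the Grm5-binding protein norbin, they were -1.88 (adjusted p = 9.75e-06) and -3.11 (adjusted p = 2.22e-08), and for Dlgap4 -0.73 (adjusted p = 1.77e-05) and -1.22 (adjusted p = 3.70e-08).

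Of 17 genes of the Gi/o route used by groups II and III, 7 were higher and 10 lower in striatal IP, and 6 were higher and 9 lower in hippocampal IP (medians -1.06 and -0.81). The hippocampal count of higher genes was near the share of all genes. Gnai1, a Gi alpha subunit, had a log2 fold change of -3.49 in striatum (adjusted p = 2.88e-10) and -3.68 in hippocampus (adjusted p = 1.07e-10). The other listed alpha subunit genes did not all go this way. In striatum and hippocampus, Gnai2 rose by 3.16 and 2.75, Gnai3 by 1.59 and 1.59, and Gnao1 by 0.86 and 1.35. Gnaz had values of -1.30 and -1.64, and all of these passed. The gamma subunit gene Gng3 had values of -2.97 (adjusted p = 1.71e-10) and -4.21 (adjusted p = 8.36e-12), and Gng2 of -1.21 (adjusted p = 6.93e-06) and -3.27 (adjusted p = 5.87e-11). Kcnj6, a potassium channel opened by G protein beta and gamma subunits, had values of -0.63 (adjusted p = 0.000179) and -2.38 (adjusted p = 5.24e-11). Its striatal means, 0.086 scaled FPKM in IP and 0.69 in input, lay below the pseudocount of 1, against 1.88 and 14.05 in hippocampus. The smaller striatal value therefore does not show a weaker depletion there.

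Of 8 partners of group II and III receptors, 2 were higher and 4 lower in striatal IP, and 1 was higher and 6 lower in hippocampal IP (medians -0.24 and -0.65). Elfn1, a postsynaptic protein that binds group III receptors across the cleft, had a log2 fold change of -2.63 in striatum (adjusted p = 1.60e-08) and -2.99 in hippocampus (adjusted p = 2.75e-09). Its relative Elfn2 had values of -1.14 (adjusted p = 0.00101) and -2.24 (adjusted p = 9.30e-07). Grasp, which encodes the scaffold tamalin, had values of -1.61 (adjusted p = 9.46e-06) and -2.08 (adjusted p = 4.42e-07), while Pias1 rose by 0.40 (adjusted p = 0.00927) and 0.66 (adjusted p = 0.000154).

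Of 12 tested genes that end receptor signalling, 3 were higher and 7 lower in striatal IP, and 2 were higher and 10 lower in hippocampal IP (medians -0.53 and -0.91). Rgs4, which speeds the shut-off of Gq and Gi/o, had a log2 fold change of -4.37 in striatum (adjusted p = 7.18e-11) and -4.04 in hippocampus (adjusted p = 8.30e-11), and Rgs8 of -2.77 (adjusted p = 1.48e-09) and -3.02 (adjusted p = 4.03e-10). Arrb1, a beta-arrestin gene, rose by 1.34 (adjusted p = 2.41e-07) and 1.48 (adjusted p = 6.31e-08). Rgs20 rose by 0.82 (adjusted p = 0.0202) and 3.26 (adjusted p = 4.19e-08).

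Of 11 other receptor genes of the same structural class, 5 were tested, of which 3 were higher and 2 lower in striatal IP and 2 were higher and 3 lower in hippocampal IP (medians 0.91 and -2.03). Gprc5b, an orphan receptor, rose by 2.91 in striatum (adjusted p = 3.04e-09) and 2.79 in hippocampus (adjusted p = 3.95e-09). Gpr158 had values of -3.34 (adjusted p = 1.79e-10) and -3.02 (adjusted p = 3.27e-10).

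Genes whose level followed each receptor across the 16 libraries were ranked by Pearson's r on the log2 scale. These correlations describe libraries that share animals, regions and the split into IP and input. Grm3 was most like the cytokine gene Il33 (r = 0.992), the phosphodiesterase gene Smpdl3a (0.990) and the peroxisomal transporter gene Abcd2 (0.989). Il33 averaged 40.7 scaled FPKM in striatal IP against 11.4 in striatal input, and 34.3 in hippocampal IP against 5.59 in hippocampal input. Grm2 was most like Slc30a3, the zinc transporter gene of synaptic vesicles (0.993), Lct (0.992) and the somatostatin receptor gene Sstr3 (0.991). Grm5 was most like Nhsl2 (0.997), Dzank1 (0.996) and the neuronal splicing factor gene Rbfox1 (0.995). Grm4 was most like Cyld (0.994), Strip2 (0.992) and Gnb5 (0.989). Grm7 was most like the presynaptic adhesion gene Nrxn3 (0.988), Map7 (0.986) and the noncoding RNA gene Rian (0.984), and Grm8 was most like Ypel2 (0.982), the calcium channel gene Itpr1 (0.982) and Ppp1r16b (0.980). Among the receptors themselves r was 0.781 to 0.946 between any pair of Grm4, Grm5, Grm7 and Grm8, and -0.861 between Grm3 and Grm5.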

How the data were processed

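The tools named in the submitters' processing notes are bcl2fastq 2.17, STAR and HTSeq, and the build is mm10. Libraries were made from 100 ng of RNA with the Nugen Ovation RNA-Seq System V2 kit, per the labels' protocols. The deposited tables, 1 per library, hold FPKM. The labels used here do not name the unit. It was checked on the values, since FPKM times GENCODE vM21 exon length fell on a common step, which also gave the estimated depth of 4140000 to 22510000 fragments.

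FPKM was divided by a trimmed-mean factor (0.746 to 1.30) that trimmed 30% of the log ratios and 5% of the levels. Genes with at least 1 FPKM in 4 libraries entered 1 limma 3.58.1 fit (R 4.3.3, trend and robust, pseudocount 1) of the 4 groups with 12 residual degrees of freedom. The procedure was tested on simulated data. Each animal gave all 4 libraries, so the animal numbers pair them. Same-animal correlations of deviations from group means ran from 0.308 to 0.532 between the IPs and from -0.008 to 0.319 for other pairs. The animal entered as a block in an alternative. Other alternatives changed the scaling, pseudocount and filter, fitted only the groups compared, subtracted the neuronal share, or left out animals or libraries. The subtraction set levels that would fall below 0 to 0. P-values of the main fit rest on the spread of libraries within groups, pooled over the 4 groups, with no term for the animal. Each group holds 1 library from each of the 4 animals.

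All 6 genes are named. From each pathway list up to 4 called genes with the smallest p, and for each receptor the 3 genes with the highest r, were named. The rule also covered Aldh1l1 and Rpl22, and not every gene it picked is reported here. Gnai2, Gnai3, Gnao1, Gnaz, Ppp1r1b, Cnp, Zbtb20 and Wfs1 were named outside the rule. The members and lists were chosen with earlier results of these data known. Figures were drawn with Python 3.11.15 and matplotlib 3.10.9.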

Additional observations from a re-analysis of the deposited data

Results flagged for a closer look

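Striatal minus hippocampal log2 IP over input passed the test for 2 receptors, and neither call held under every alternative. For Grm2 the value was 1.96 (adjusted p = 5.87e-05), with striatal levels far below the pseudocount of 1, and it did not pass with a pseudocount of 0.1 (1.55, adjusted p = 0.0875). It does not show that the effect of precipitation on Grm2 differed between the regions. For Grm3 the value was -0.87 (adjusted p = 0.0337), with the ratio of IP to input smaller in striatum than in hippocampus in 4 of 4 animals. The Grm3 call was lost in 11 of 16 fits without a single library and in 3 of 4 fits without a single animal. Grm3 input in striatum was 2.11 to 3.55 times that in hippocampus, and Grm3 IP in striatum was 1.09 to 1.72 times that in hippocampus. In none of the 24 sets of 4 libraries, 6 genes in 4 groups, did a single library stand apart from the other 3 by Dixon's test.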

How the results depend on the processing

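The 30 alternatives gave 889 values for single receptors, of which 841 kept their direction and their side of the threshold. Many of these could not change direction. Another filter, the animal block, limma without trend and robust, or a fit of only the groups compared left each fold change as it was. So did leaving out a library outside the comparison. In such fits only the adjusted p could move. In IP against input, the count of called receptors was 5 to 6 in hippocampus and 4 to 6 in striatum over all alternatives, the lowest under a filter of 5 FPKM, where Grm8 gave no value. With the animal as a replicate block, the pairing left the counts at 5 in striatum, 6 in hippocampus, 4 between IPs and 2 for the region difference, and gave 6 in place of 5 between inputs. Between IPs, leaving out an animal or a library gave 2 to 4 called receptors, the lowest without animal 977, and no scaling gave 5. With the neuronal share subtracted, Grm4 was no longer called between IPs (0.34, adjusted p = 0.502). Between inputs the range was 4 to 5 with an animal or a library left out. The region difference had 2 called receptors, 1 with a pseudocount of 0.1, 4 with the neuronal share subtracted, 1 without striatal inputs 971 and 974 (an alternative chosen after the data were seen), and 1 to 3 with an animal or a library left out. Median-of-ratios scaling added Grm4 to the called receptors of the region difference (-0.95, adjusted p = 0.0393). Values that turned sign were never called ones. They were Grm5 between IPs with the neuronal share subtracted (-0.92), Grm4 in the region difference with a pseudocount of 0.1 (0.45), and Grm8 in the region difference with median-of-ratios scaling (-0.036), with the neuronal share subtracted (-0.23) and with an animal or a library left out (-0.11 to 0.14 over those fits). The cause was not tested. With no scaling the median log2 fold change of all genes moved to -0.51 in hippocampus and -0.25 in striatum, against -0.10 and 0.0099. Relative to that median, with no scaling, Grm3 stayed higher and Grm4, Grm5, Grm7 and Grm8 stayed lower in IP in both regions. Depth limits Grm2 in striatum, where it rests on 0 to 14 fragments a library.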

Other observations

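Gabbr2, which encodes a subunit of the metabotropic GABA receptor and belongs to the same structural class, was enriched in IP in striatum and depleted in hippocampus. It averaged 46.8 ± 14.2 scaled FPKM in striatal IP against 15.6 ± 1.58 in striatal input (log2 fold change 1.48, adjusted p = 1.37e-06), and 16.9 ± 2.21 in hippocampal IP against 72.0 ± 2.38 in hippocampal input (-2.03, adjusted p = 2.65e-08; SD, n = 4 each). The difference between the regions was 3.51 (adjusted p = 3.94e-07).

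Rgs20, a regulator of Gi signalling, rose in IP in both regions but by unequal amounts. It averaged 35.1 ± 9.99 scaled FPKM in striatal IP against 20.9 ± 11 in striatal input, and 37.9 ± 4.05 in hippocampal IP against 3.07 ± 0.65 in hippocampal input, a region difference of -2.44 (adjusted p = 0.000684).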
